A study of Homo sapiens with 36 samples.

Results

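The D-type cyclins CCND1, CCND2 and CCND3, their partner kinases CDK4 and CDK6, and RB1 are 6 of the 2549 genes of a targeted RNA-Seq panel. They were taken by name from the deposited counts, and all 6 were in the panel. The panel was read once in each of 36 human lymphoma cell lines, from lysates plated at 10000 cells per well. The lines are established B-cell cultures grown as laboratory models of lymphoma.

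D-type cyclins bind CDK4 or CDK6 when growth signals reach a cell in G1. The active kinase phosphorylates the retinoblastoma protein, encoded by RB1, which then releases E2F transcription factors and lets the cell enter S phase. In mantle cell lymphoma a translocation places CCND1 next to the immunoglobulin heavy-chain locus, whereas normal B cells use mainly CCND2 and CCND3.

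The labels name each line and place the lines in no groups. Lymphoma types were therefore assigned from general knowledge of these lines. DB, DOHH2, KARPAS422, OCILY1, OCILY18, OCILY19, OCILY7, OCILY8, SUDHL10, SUDHL16, SUDHL4, SUDHL6, TOLEDO and WSU_DLCL2 were the 14 lines of germinal centre B-cell-like (GCB) diffuse large B-cell lymphoma. HBL1, RIVA, SUDHL2, TMD8 and U2932 were the 5 lines of its activated B-cell-like (ABC) form. GRANTA519, JEKO1, JVM2, MAVER1, MINO, REC1, SP49, SP53 and UPN1 were the 9 mantle cell lines, of which JVM2 came from a prolymphocytic leukaemia. KARPAS1718, SSK41 and VL51 (marginal zone) and HAIR_M and HC_1 (hairy cell) formed a set of 5 lines. FARAGE and RCK8, diffuse large B-cell lines whose cell of origin was not set, and MEC1, the only chronic lymphocytic leukaemia line, were described and entered no test. No treatment is given for any line.

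Each line gave 1 library, so the spread within a type is that between lines, and culture-to-culture error is unknown. Total counts per library ran from 6422917 to 13451527. Levels are in CPM, counts brought to a common library size and scaled by the TMM factor of edgeR, which corrects for differences in RNA composition. All 6 measured B-cell markers lay above the control probes in all 36 lines. Markers of other cell types were measured too. The summed level over the 36 lines ran from 27.4 to 476 CPM for the 6 myeloid markers, from 10.1 to 725 CPM for 5 T and NK cell markers, from 18.7 to 1128 CPM for 4 stromal and endothelial markers and from 437 to 2528 CPM for 4 epithelial markers. Within these lists the genes differed: CD14 was under 10 CPM in 31 lines, ITGAM in 29, CSF1R in 23, MPO in 15, LYZ in 4 and CD33 in 2. EPCAM was under 10 CPM in 19 lines and CDH1 in 10, while the keratin genes KRT8 and KRT18 were above 100 CPM in every line. The part of these transcripts in the results was not tested. Of markers of mantle cells, CD5 ran from 1.94 to 211 CPM in the mantle cell lines and from 0.113 to 28.9 CPM in GCB lines. It ran from 9.79 to 46.5 CPM in ABC lines and from 3.62 to 59.3 CPM in marginal zone and hairy cell lines. These ranges overlapped, so CD5 did not separate the mantle cell lines from the other types. CCND1 was under 100 CPM in 5 of the 9 mantle cell lines. The MEC1 library stood apart, with 424 counts on its highest control probe against a median of 10. All 216 member values (6 genes in 36 lines) exceeded the highest control probe of their library.

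CCND1 lies on chromosome 11 (69641087 to 69654474, plus strand), CCND2 on chromosome 12 (4273772 to 4305350, plus strand) and CCND3 on chromosome 6 (41934933 to 42050357, minus strand). CDK4 is on chromosome 12 (57747727 to 57756013, minus strand), CDK6 on chromosome 7 (92604921 to 92836594, minus strand) and RB1 on chromosome 13 (48303726 to 48599436, plus strand). Coordinates are those of GENCODE release 29 on GRCh38, the assembly that the submitters' processing notes name as hg38. Where in each transcript the panel's probes lie is not given in the sources used here.

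CCND3 and CDK6 were the 2 members lower in mantle cell lines than in GCB lines, and for that reason the sequence upstream of each is shown. Each stretch holds 200 bases, from 250 to 51 bases before the RefSeq start nearest the principal transcript (RefSeq, GRCh38.p14). They are printed 5′ to 3′ on the gene's strand, chr6:41941859-41942058 (minus) for CCND3 and chr7:92834010-92834209 (minus) for CDK6. Capitals mark matches to the motifs searched.
CCND3: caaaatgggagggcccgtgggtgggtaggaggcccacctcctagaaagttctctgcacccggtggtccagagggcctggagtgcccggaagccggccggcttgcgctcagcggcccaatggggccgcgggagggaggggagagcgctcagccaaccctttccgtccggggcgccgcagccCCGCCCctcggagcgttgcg
CDK6: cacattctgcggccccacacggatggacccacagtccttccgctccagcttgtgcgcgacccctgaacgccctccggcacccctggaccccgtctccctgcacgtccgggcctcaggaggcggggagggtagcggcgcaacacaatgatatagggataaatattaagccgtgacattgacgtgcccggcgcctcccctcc
The motifs, searched on both strands, were the GC box (GGGCGG), E box (CACGTG), E2F site (TTTGGCGC, TTTCCCGC or TTTCGCGC), CRE (TGACGTCA), TATA box (TATAAA), octamer (ATGCAAAT) and STAT site (TTCNNNGAA). The CCND3 stretch held 1 GC box, whose first base lay at -70 from the start, and GC boxes occurred in 34.9% of 34943 such stretches of human genes. The CDK6 stretch held none of the 7 motifs. Bases nearer the start than 51 were not searched, so a motif placed there, such as a TATA box, could not be found. Among all stretches the E box occurred in 4.51%, the E2F site in 1.84%, the CRE in 0.947%, the TATA box in 7.66%, the octamer in 1.29% and the STAT site in 5.47%.

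The members differed widely in how much they varied. The SD of log2 CPM across the 36 lines was 3.10 for CCND1 and 2.53 for CCND2, ranks 12 and 57 among 2406 genes. RB1 and CDK6 had SDs of 1.89 each (ranks 293 and 295), CCND3 1.25 and CDK4 0.97, against a median of 1.197 for all genes. The lowest and highest line differed 14136-fold for CCND1 and 12.9-fold for CDK4. Thus within one pathway a pair of cyclins ranked among the most variable genes of the panel, while CDK4 varied less than the median gene.

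**Figure D1:**
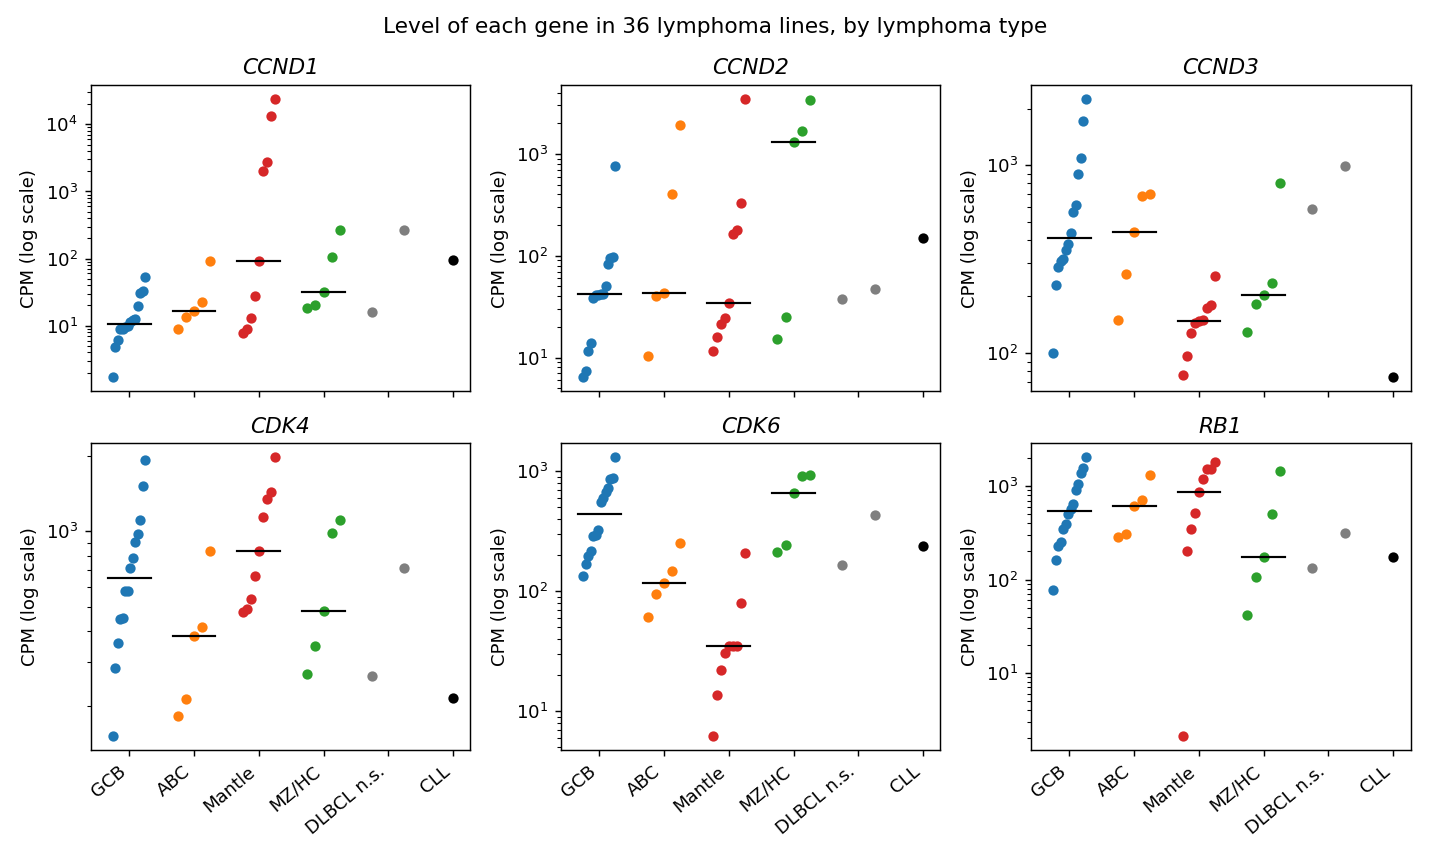
Level of each of the 6 genes (y axis, CPM on a log scale) in each of the 36 lines (points), by lymphoma type (x axis; MZ/HC, marginal zone and hairy cell; DLBCL n.s., cell of origin not set); the horizontal bar is the median of the lines of a type. CDK6 lay at 6.25 to 208 CPM in the 9 mantle cell lines and at 213 to 938 CPM in the 5 marginal zone and hairy cell lines, and RB1 lay at 2.12 CPM in 1 mantle cell line.

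CCND1 was abundant in a subset of the mantle cell lines. Its level in those 9 lines ran from 7.90 CPM in SP53 through a median of 91.2 CPM to 24021 CPM in MAVER1. GCB lines ran from 1.70 CPM in SUDHL4 (15 counts, 95% Poisson interval 0.951 to 2.80 CPM) through a median of 10.6 CPM to 53.6 CPM in OCILY8. The mantle cell lines thus overlapped the GCB lines: 5 of the 9 lay above every GCB line, and the remaining lines JEKO1, SP49, SP53 and UPN1 lay within the GCB range.

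CCND1, the gene whose translocation marks mantle cell lymphoma, was under 100 CPM in 5 of these 9 lines, while the other 4 (MAVER1, MINO, GRANTA519 and JVM2) had at least 2051 CPM. Where in the CCND1 transcript the probes lie is not given, and whether this bears on the low counts was not tested. In the ABC lines CCND1 was 13.4 CPM in HBL1, 8.97 in RIVA, 22.4 in SUDHL2, 16.6 in TMD8 and 91.1 in U2932. In the marginal zone and hairy cell lines it was 106 CPM in HAIR_M, 18.1 in HC_1, 20.5 in KARPAS1718, 31.3 in SSK41 and 270.0 in VL51. Outside the mantle cell lines it was thus at most 270.0 CPM, with FARAGE close behind VL51 at 268 CPM. MEC1 had 94.3 CPM and RCK8 15.7 CPM.

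CCND2 was high in single lines of several types. In the marginal zone and hairy cell set it was 1300 CPM in HAIR_M, 1666 in HC_1 and 3388 in VL51, but 24.9 in KARPAS1718 and 15.3 in SSK41. In the ABC lines it was 1938 CPM in HBL1, 405 in TMD8, 42.7 in U2932, 39.9 in SUDHL2 and 10.3 in RIVA. Both sets therefore held lines with abundant CCND2 and lines with little. GCB lines ran from 6.40 CPM in SUDHL6 through a median of 41.7 CPM to 755 CPM in DOHH2, and mantle cell lines from 11.5 CPM in JEKO1 through 34.1 CPM to 3474 CPM in JVM2. MEC1 had 148 CPM, RCK8 46.9 and FARAGE 38.0. In the GCB, ABC and mantle cell lines the highest line lay far above the median of its type.

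CCND3 was present in every line and was lowest on average in the mantle cell lines. Those 9 lines ran from 76.9 CPM in SP53 through a median of 149 CPM to 258 CPM in JVM2. GCB lines ran from 99.6 CPM in DOHH2 through 408 CPM to 2252 CPM in SUDHL6, and 12 of the 14 lay above every mantle cell line. The exceptions were DOHH2 and DB (231 CPM). ABC lines had 440 CPM in HBL1, 149 in RIVA, 700 in SUDHL2, 682 in TMD8 and 264 in U2932, of which 4 lay above every mantle cell line. The marginal zone and hairy cell lines had 236 CPM in HAIR_M, 129 in HC_1, 203 in KARPAS1718, 807 in SSK41 and 182 in VL51, overlapping both neighbours. FARAGE (582 CPM) and RCK8 (988 CPM) lay in the GCB range, and MEC1 had the lowest level of all lines (74.3 CPM).

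To ask which D cyclin led in each line, the counts of the 3 were expressed as shares of their sum. CCND3 had the most counts in 26 of 36 lines, CCND2 in 7 and CCND1 in 3. Of the 14 GCB lines, 13 were led by CCND3, with 79.2% (SUDHL10) to 99.4% (SUDHL6) of the sum, and DOHH2 by CCND2 (87.2%). Of the ABC lines 4 were led by CCND3 and HBL1 by CCND2 (81.1%). In both types all lines but 1 were thus led by CCND3.

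By counts, each of the 3 cyclins led in at least 1 mantle cell line, which held for no other type on this scale. CCND1 led in MAVER1 (98.6% of the sum), MINO (96.9%) and GRANTA519 (89.97%). JVM2 was led by CCND2 (60.1%), with CCND1 at 35.5%. CCND3 led in JEKO1 (88.0%), UPN1 (79.3%), SP49 (78.1%), SP53 (64.7%) and REC1 (58.3%), the last with CCND1 at 35.5%. In the marginal zone and hairy cell set CCND2 led in HC_1 (91.9%), VL51 (88.2%) and HAIR_M (79.2%), which takes in both hairy cell lines, and CCND3 led in SSK41 (94.5%) and KARPAS1718 (81.7%). MEC1 had the most even make-up, with CCND2 at 46.8%, CCND1 at 29.8% and CCND3 at 23.4%.

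In 4 lines (TMD8, MEC1, JVM2 and REC1) the second cyclin had at least 50% of the counts of the first. Probes for different targets need not capture equally. The shares were also computed on other scales, neither of which measures capture. Per base of the principal transcript (4307 bases for CCND1, 6480 for CCND2 and 2085 for CCND3) the lines led by CCND1, CCND2 and CCND3 numbered 3, 6 and 27, and MEC1 was the line that changed. Relative to each gene's own median level over the 36 lines, the numbers were 12, 10 and 14. That scale shows which cyclin was highest for its own gene, not which was the most abundant. On that scale 7 of the 9 mantle cell lines were led by CCND1, among them JVM2, REC1, SP49 and UPN1. Yet CCND1 was at 13.0 CPM in UPN1, below its own median of 18.8 CPM, and at 27.4 CPM in SP49. CCND3 was at 144 CPM in UPN1 and 174 CPM in SP49. Each cyclin also led on that scale in at least 1 line of the GCB, ABC and marginal zone and hairy cell sets. The choice of scale thus moved the leading cyclin in many lines.

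**Figure D2:**
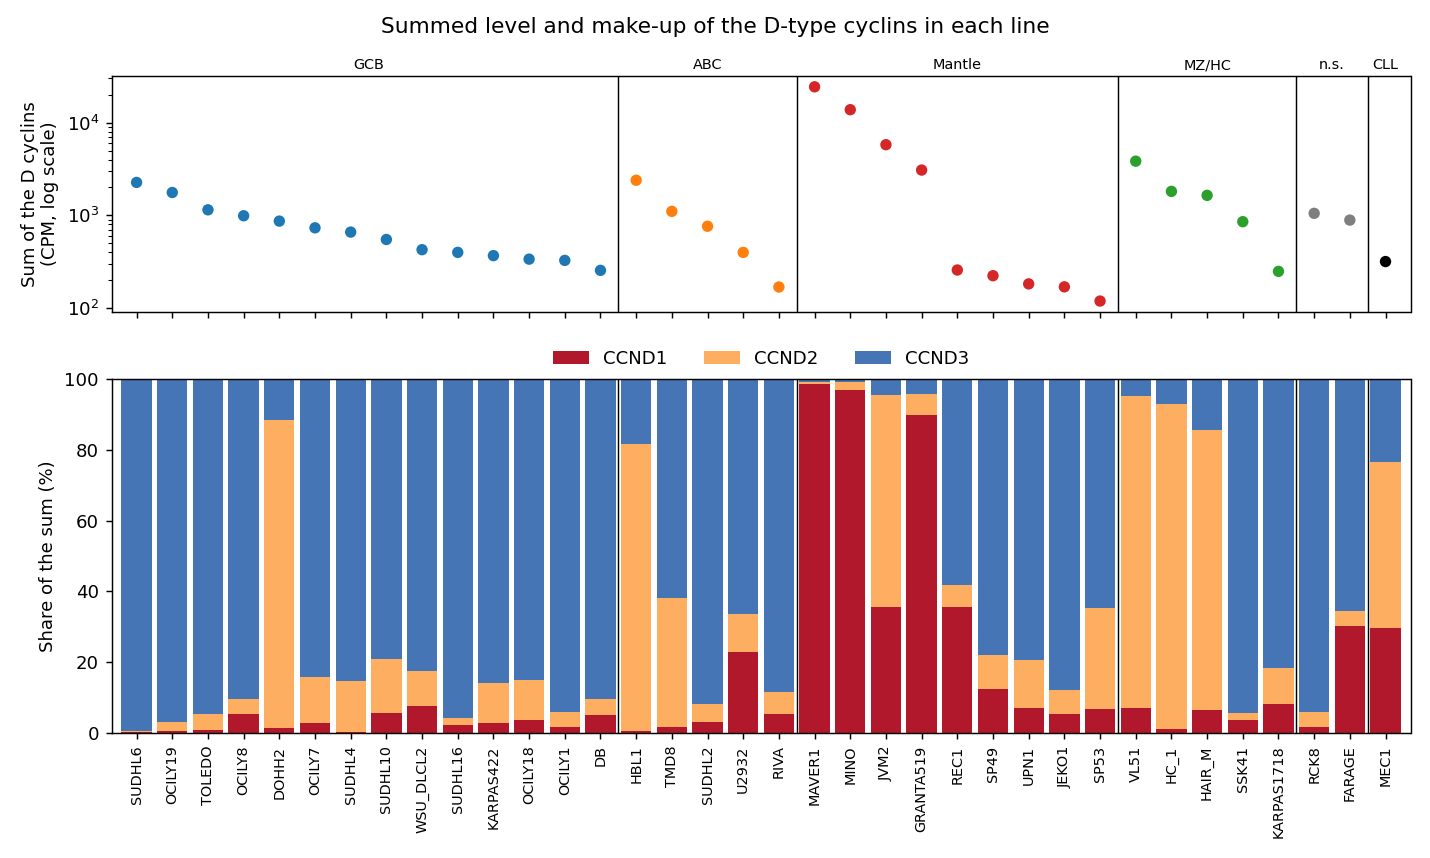
Upper panel, sum of CCND1, CCND2 and CCND3 (y axis, CPM on a log scale) in each of the 36 lines (x axis, ordered by type and then by the sum; n.s., cell of origin not set). Lower panel, share of each cyclin in that sum (%): CCND3 had the largest share in 26 lines, CCND2 in 7 and CCND1 in 3.

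The sum of the 3 cyclins ran from 119 CPM in SP53 to 24363 CPM in MAVER1, both mantle cell lines, with a median of 747 CPM. The 4 mantle cell lines with abundant CCND1 had sums of 3079 to 24363 CPM. REC1, SP49, UPN1, JEKO1 and SP53 had sums of 257, 223, 182, 169 and 119 CPM, and RIVA had 169 CPM. GCB lines ran from 255 CPM in DB to 2265 CPM in SUDHL6, so JEKO1, SP49, SP53, UPN1, RIVA and KARPAS1718 (248 CPM) had less summed D-cyclin signal than any GCB line. These sums and the shares above rest on probes whose positions are not given. The part of probe position in the low CCND1 counts was not tested.

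CDK4 was present at more than 100 CPM in every line and overlapped among the types. It ran from 153 CPM in WSU_DLCL2 through a median of 648 CPM to 1922 CPM in TOLEDO in GCB lines. Mantle cell lines ran from 477 CPM in SP49 through 835 CPM to 1973 CPM in REC1. ABC lines had 214 CPM in HBL1, 833 in RIVA, 182 in SUDHL2, 414 in TMD8 and 383 in U2932. The marginal zone and hairy cell lines had 270.2 CPM in HAIR_M, 349 in HC_1, 986 in KARPAS1718, 482 in SSK41 and 1111 in VL51. The mean log2 level was highest in mantle cell lines (9.77 ± 0.75, SD, n = 9), followed by GCB (9.31 ± 0.97, n = 14), marginal zone and hairy cell (9.10 ± 0.90, n = 5) and ABC lines (8.45 ± 0.87, n = 5), and no neighbours in that order differed beyond these SDs. RCK8 had 714 CPM, FARAGE 264 and MEC1 216.

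CDK6, the other kinase of the D cyclins, was low in the mantle cell lines. They had 6.25 CPM in JEKO1 (57 counts, 95% interval 4.73 to 8.09 CPM), 13.6 in SP49, 21.9 in REC1, 30.7 in SP53, 34.7 in MAVER1, 35.2 in GRANTA519, 35.3 in MINO, 80.2 in UPN1 and 208 in JVM2. Among the lines with abundant CCND1, MAVER1, MINO and GRANTA519 had 34.7 to 35.3 CPM of CDK6, but JVM2 had the most of all mantle cell lines. Among those with CCND1 under 100 CPM, JEKO1, SP49, REC1 and SP53 had 6.25 to 30.7 CPM of CDK6 and UPN1 had 80.2 CPM. Whether the levels of these genes go together among the mantle cell lines was not tested. GCB lines ran from 135 CPM in WSU_DLCL2 through a median of 442 CPM to 1304 CPM in OCILY19, so that 8 of the 9 mantle cell lines lay below every GCB line and JVM2 lay within their range. The marginal zone and hairy cell lines had 213 CPM in HC_1, 242 in HAIR_M, 656 in KARPAS1718, 917 in SSK41 and 938 in VL51, all above every mantle cell line. ABC lines lay between, with 61.2 CPM in RIVA, 95.7 in HBL1, 117 in SUDHL2, 149 in U2932 and 254 in TMD8, and they overlapped both neighbours. RCK8 had 435 CPM, MEC1 236 and FARAGE 167.

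By counts, CDK4 exceeded CDK6 in 30 of the 36 lines. The ratio of CDK4 to CDK6 ran from 2.35 in JVM2 through a median of 32.8 to 230.0 in JEKO1 in mantle cell lines. In GCB lines it ran from 0.329 in DOHH2 through 1.59 to 8.93 in TOLEDO. The ABC lines had ratios of 1.56 to 13.6, and the marginal zone and hairy cell lines 0.526 to 1.64. CDK6 had more counts than CDK4 in DB, DOHH2, OCILY19, SUDHL4, SSK41 and MEC1. Per base of the principal transcript (2076 bases for CDK4 and 11612 for CDK6) CDK4 led in all 36 lines, and relative to each gene's own median it led in 12. The division by length moves the log2 ratio by the same amount in every line, in DOHH2 from -1.60 to 0.88. Since the probe positions are not given, neither scale shows which kinase had more transcript.

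**Figure D3:**
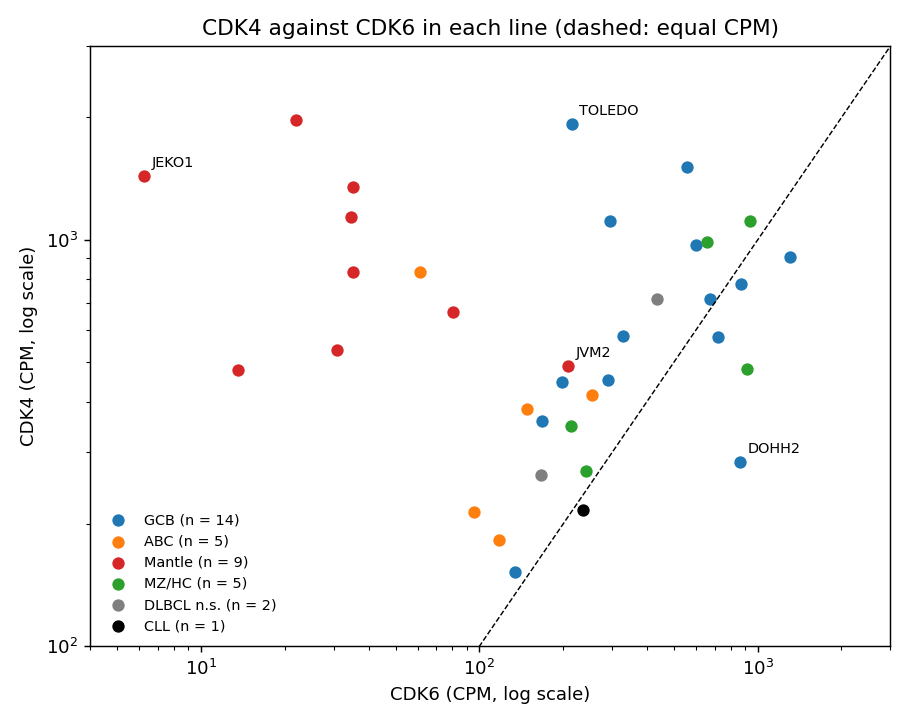
CDK4 (y axis) against CDK6 (x axis) in each of the 36 lines, both in CPM on log scales and coloured by lymphoma type (MZ/HC, marginal zone and hairy cell; DLBCL n.s., cell of origin not set); the dashed line marks equal CPM. The mantle cell lines lie to the left, at CDK6 levels of 6.25 to 208 CPM, and 30 of the 36 lines lie above the dashed line.

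RB1, the substrate of these kinases, was under 100 CPM in 3 lines. UPN1, a mantle cell line, had 2.12 CPM, from 33 counts (95% interval 1.46 to 2.98 CPM) against 20 counts on the highest control probe of that library. HAIR_M had 41.7 CPM and OCILY1 77.5 CPM, with 303 and 699 counts. UPN1 was thus close to the level of the control probes, while the other two were well above it.

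The other 8 mantle cell lines had 204 CPM (REC1) to 1823 CPM (SP53) of RB1. GCB lines had a median of 535 CPM and a maximum of 2027 CPM in OCILY19. ABC lines had 1316 CPM in HBL1, 283 in RIVA, 705 in SUDHL2, 616 in TMD8 and 309 in U2932. The remaining marginal zone and hairy cell lines had 500 CPM in HC_1, 1443 in KARPAS1718, 108 in SSK41 and 175 in VL51, and RCK8 had 312 CPM, MEC1 174 and FARAGE 131. RB1 thus overlapped among all types. CDKN2A, whose product p16 inhibits CDK4 and CDK6, was at 128 CPM in UPN1, 171 in OCILY1 and 29.1 in HAIR_M, against a median of 62.5 CPM over the 36 lines.

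The types with 5 or more lines were compared by the edgeR quasi-likelihood test on all 2406 genes with sufficient counts, with Benjamini-Hochberg adjustment over those genes and a threshold of 0.05. All 6 members were among the genes tested. Each library came from a bulk lysate, in which fewer cells with a transcript and less transcript per cell cannot be told apart. Over the 4 types, CCND1 (adjusted p = 4.92e-06), CDK6 (0.000513) and CCND3 (0.0120) differed. CCND2 (0.142), CDK4 (0.346) and RB1 (0.811) did not pass. Of all genes tested, 6.28% passed, against 3 of the 6 members.

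Mantle cell lines differed from GCB lines in CDK6, CCND3 and CCND1. CDK6 was lower by a log2 fold change of -3.32 ± 0.54 (SE, adjusted p = 0.000257) and CCND3 by -2.18 ± 0.45 (adjusted p = 0.00329). CCND1 was higher by 8.21 ± 1.11 (adjusted p = 3.10e-05). The median gene had a log2 fold change of -0.28 in this comparison. In total 4.36% of genes passed, 2% lower in the mantle cell lines and 2.37% higher, against 3 of the 6 members, 2 lower and 1 higher.

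The 3 calls rested on the lines to different degrees. CDK6 and CCND3 passed in each of 33 fits that left out 1 line and in each of 11 alternative analyses, with CDK6 between -3.999 and -3.14 and CCND3 between -2.31 and -1.73. The CCND1 call passed in all 33 of those fits, with a log2 fold change of 7.17 (without MAVER1) to 8.50, but failed with limma-voom, which works on log counts (4.26, adjusted p = 0.0820, the highest of the 11 alternatives, against a lowest of 8.41e-22). For CCND1 the authors' log2 values gave 4.50, so that the size of the difference depended on the scale. CCND2 (2.32 ± 0.98, adjusted p = 0.175), CDK4 (0.36 ± 0.36, 0.581) and RB1 (0.30 ± 0.61, 0.806) did not pass. For CCND2, JVM2 decided the estimate: without it the log2 fold change was 0.04 (adjusted p = 0.985), and without DOHH2 it was 3.43 and passed (adjusted p = 0.0293). It also passed with the DESeq2 test (adjusted p = 0.0467).

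CDK6 was also lower in the mantle cell lines than in the marginal zone and hairy cell lines. The log2 fold change was -3.52 ± 0.60 (adjusted p = 0.00253), and the call held in all 33 fits without 1 line and in all 11 alternatives. The ranges lay apart only narrowly. JVM2 had 208 CPM (95% Poisson interval 198 to 219) and HC_1 had 213 CPM (204 to 222), and these intervals overlapped. How many of all genes had ranges apart was not counted. Of all genes tested 0.582% passed in this comparison, each of them lower in the mantle cell lines, against 1 of the 6 members. CCND1 (5.72 ± 1.58, adjusted p = 0.106) did not pass, except with the DESeq2 test (adjusted p = 2.41e-05; up to 0.999 over the alternatives). Against ABC lines CDK6 did not pass (-1.39 ± 0.59, adjusted p = 0.322).

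CCND1 was the member that passed between mantle cell and ABC lines, with a log2 fold change of 7.27 ± 1.71 (adjusted p = 0.0476), beside 0.374% of genes. This call was lost in 18 of the 33 fits that left out 1 line, over which the log2 fold change ran from 6.23 (without MAVER1) to 8.26 (without U2932). It was lost in 7 of the 11 alternatives, over which the log2 fold change ran from 3.40 to 7.37 and the adjusted p from 1.27e-09 to 0.432. CCND3 (-1.57 ± 0.53, adjusted p = 0.218) and CDK4 (1.29 ± 0.51, adjusted p = 0.279) did not pass there.

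Between the types other than mantle cell, no member passed. Marginal zone and hairy cell lines against GCB lines gave CCND2 a log2 fold change of 3.75 ± 1.11 (adjusted p = 0.0540), while 3.28% of genes passed. CCND2 passed in 4 of the 11 alternatives (adjusted p from 0.0110 to 0.353) and in 8 of the 33 fits without 1 line (0.00527 to 0.310). ABC against GCB lines gave CDK6 -1.93 ± 0.63 (adjusted p = 0.135), while 1.75% of genes passed, and CDK6 passed with the DESeq2 test alone (adjusted p = 0.0103; up to 0.398 over the alternatives). Marginal zone and hairy cell against ABC lines gave CDK6 2.13 ± 0.71 (adjusted p = 0.374). There 0% of genes passed in edgeR, 181 had an unadjusted p under 0.05 and DESeq2 called 31. The comparisons share lines, so their values are not independent of each other.

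**Figure D4:**
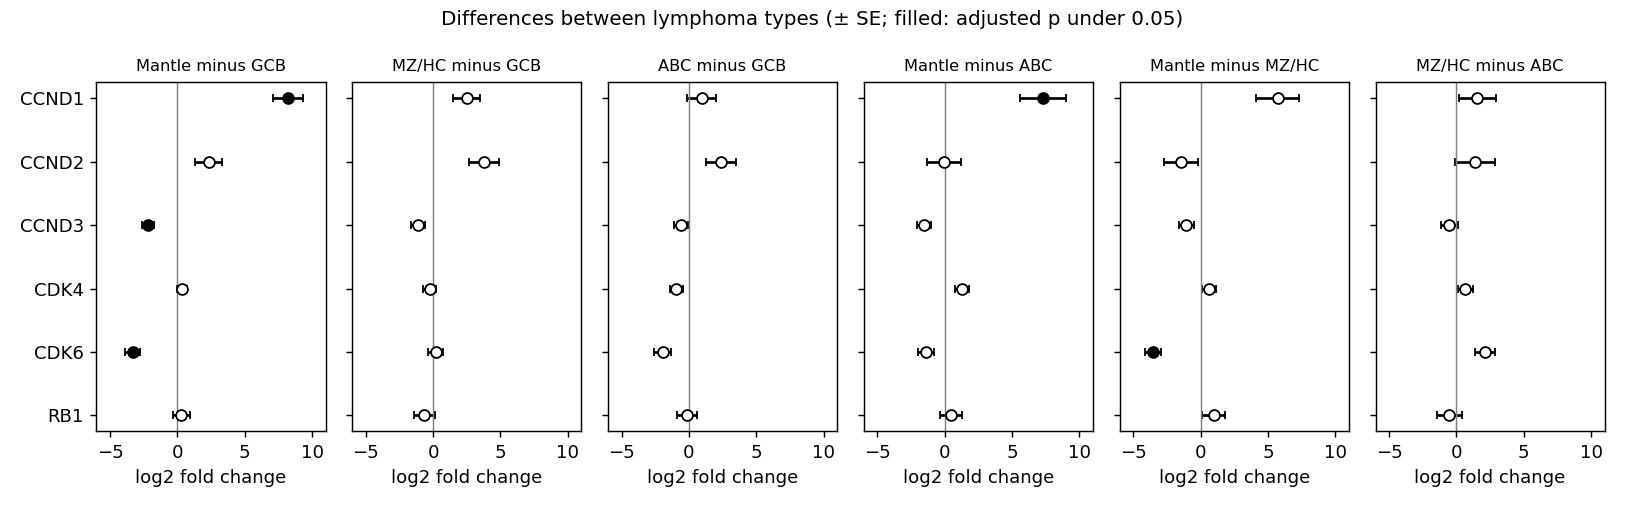
Log2 fold change (x axis) of each of the 6 genes (y axis) in the 6 pairs of lymphoma types, from the edgeR fit of 33 lines; bars are ± SE and filled points have an adjusted p under 0.05 over 2406 genes. CDK6 is filled at -3.32 and -3.52 in mantle cell lines against GCB lines and against marginal zone and hairy cell (MZ/HC) lines.

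Of 50 other genes of the G1 pathway listed, 40 were in the panel, and 1 passed over the 4 types, where 6.28% of all genes did. This was CDKN1C, which encodes the cyclin-dependent kinase inhibitor p57 (adjusted p = 0.00137). Its level ran from 4.15 CPM in JVM2 through a median of 119 CPM to 688 CPM in JEKO1 in mantle cell lines, and from 4.53 to 34.0 CPM in GCB lines. The log2 fold change was 3.92 ± 0.67 (adjusted p = 0.000441) for mantle cell against GCB lines and 3.25 ± 0.72 (adjusted p = 0.0106) for ABC against GCB lines. The other 6 inhibitors of the INK4 and KIP families, among them CDKN2A and CDKN1B, did not pass in any pair. Some of their estimates were large and imprecise, such as 2.19 ± 0.81 for CDKN1A in marginal zone and hairy cell against GCB lines (adjusted p = 0.175).

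Of the 7 measured RB relatives, E2F factors and partners, E2F5, a repressor of the E2F family, was lower in mantle cell than in GCB lines (-1.48 ± 0.45, adjusted p = 0.0497) and was singled out after its value was seen. None of the 12 measured E2F target genes, such as the MCM replication helicase subunits and PCNA, passed in any pair. Neither did any of the 5 genes for E and A cyclins and CDK2, which act after the D cyclins, nor any of 9 genes of CDK activation and cyclin turnover. Since 0% to 4.36% of all genes passed in a pair, a count of 0 in lists this short says little about them. The median log2 fold change of mantle cell against GCB lines was 0.29 for the E2F targets, 0.05 for the E and A cyclins with CDK2, and -0.28 for all genes.

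Relations between members across lines were tested by Pearson's r and Spearman's rho of log2 CPM, with two-sided permutation tests adjusted over 21 relations. CDK4 rose with MKI67, the gene of the proliferation antigen Ki-67 (r = 0.627, adjusted permutation p = 0.00189, and rho = 0.601, adjusted p = 0.00273, n = 36 lines). With WSU_DLCL2 and REC1, whose CDK4 was most extreme, left out, r was 0.606, and it ran from 0.578 to 0.687 as each line was left out. With the type means taken out r was 0.554, and with the TMM factor regressed out it was 0.490, and both passed. CDK4 levels moved with the TMM factor itself (rho = -0.62 in 36 lines), and with scaling by library size alone the relation did not pass.

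CCND3 and CDK6 were also related (r = 0.497, adjusted permutation p = 0.0209, and rho = 0.452, adjusted p = 0.0422, n = 36 lines). This relation passed in 13 of the 36 sets that left out 1 line, and r was 0.425 without SUDHL6 and OCILY19. With the type means taken out r was 0.225, and with the TMM factor regressed out it was 0.471, and neither passed. No correlation was computed within single types. The other 19 relations did not pass. They included CDK4 with CDK6 (r = -0.11), CCND2 with CCND3 (r = -0.24) and RB1 with CDKN2A (r = -0.29). CCND1 fell into 4 high and 32 lower lines separated by 2.92 log2 units, and was related only within the 32, where its rho with RB1 was -0.479 (adjusted permutation p = 0.0422) and its r was -0.338 (adjusted p = 0.257). That relation passed with UPN1 left out, r ran from -0.533 to -0.283 as each line was left out, and with the type means taken out r was -0.06.

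The genes whose levels ordered the 36 lines most like each member are given by Spearman's rho as a description. For CCND2 they were IL15 (0.80), TNFRSF8 (0.74) and CCL5 (0.73), with BCOR (-0.65) among the opposed. For CCND1 they were CCL5 (0.69), TNFSF14 (0.68) and CSF1 (0.65), with STK39 (-0.55) and FANCB (-0.53) opposed. The chemokine gene CCL5 thus stood among the 3 most like both cyclins. For CCND3 they were PIAS3 (0.63), EZR (0.57) and ACLY (0.55), with CCL4 (-0.65) and TBX21 (-0.62) opposed.

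For CDK4 they were the splicing factor SRSF2 (0.86), SAFB (0.84) and RAD51C (0.83), with PRMT8 (-0.84) and SFRP1 (-0.83) opposed. These rho shrank to 0.67, 0.65, 0.75, -0.53 and -0.54 with scaling by library size alone. On that scale the rho of CCND2 with IL15 was 0.83 and that of CCND3 with TBX21 was -0.36. For CDK6 the most alike were NF1 (0.68), PFKFB4 (0.66) and NPC1 (0.65), with FAM64A (-0.70) and MAP1B (-0.67) opposed. For RB1 they were CNPY3 (0.60), PKM (0.55) and MADD (0.54), with SOX10 (-0.55) and MST1R (-0.52) opposed. With library size alone these were 0.51, 0.43, 0.35, -0.32 and -0.35 in the same order, so that likeness to RB1 also depended on the scaling. Some of the genes named as alike or opposed were low, and their order is more exposed to counting error. The median over the 36 lines was 3.81 CPM for SOX10, 9.00 for MST1R, 10.0 for PRMT8, 11.6 for TBX21 and 11.7 for TNFSF14.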

How the data were processed

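The authors deposited raw counts of 2559 targets in 36 libraries, and log2 values, which the values show to be the log2 of the scaled count plus 1 within 0.00527. Per the labels' protocols, lysates of singleton samples were sequenced on an Illumina NextSeq. The submitters' processing notes name hg38. The aligner and counter were not given in the sources used here. Control probes (10 targets named ER and a number) entered neither library sizes nor tests. Counts were scaled by TMM in edgeR 4.0.16 (R 4.3.3), and log2 CPM used a prior count of 2. Genes that reached 10 CPM in 4 or more lines (2406 of 2549) were fitted in 1 quasi-likelihood model of 33 lines, with an F test over 4 types and 6 pairwise contrasts. The SE is the log2 fold change divided by the square root of F. Intervals are exact Poisson at 95% and cover counting error only. Correlations used 100000 permutations. The script was tested on simulated data. Alternatives were DESeq2 1.42.0 size factors and test, library size alone, no filter, 50 CPM, limma-voom (limma 3.58.1), the authors' log2 values with limma, the TMM factor as covariate, other placements of lines, and each line left out. Named genes were the members, the 3 most and 2 least like each, the pathway list genes that passed, and both sides of each relation; some genes that this rule takes are not reported here. The members, lists, tests and naming rule were chosen with earlier results of these data known. The p-values measure only the spread between lines.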

Additional observations from a re-analysis of the deposited data

Results flagged for a closer look

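Among the sets of lines tested, RB1 in UPN1 was the one member value flagged as far from the other lines of its type. It was 2.12 CPM, whereas the other 8 mantle cell lines had 204 to 1823 CPM. The gap to the nearest line was 6.46 log2 units, or 67.2% of the range of the type, above Dixon's critical value of 49.3% for 9 lines. The test was made for 18 sets of lines (3 types of 4 to 10 lines for each of 6 genes). Chance would flag about 1 set in 20, so 1 flag among 18 sets is about the number expected by chance. The 14 GCB lines were outside this test. Among them CCND2 in DOHH2 (755 CPM) also lay far above the next line, OCILY7 (96.3 CPM). No explanation was tested.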

How the results depend on the processing

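Each line was sequenced once, lymphoma types were assigned from general knowledge of the lines, and 3 types had 9 or fewer lines, which limits the precision of every comparison. No paired analysis was possible, since each library comes from a different line and the lines of different types have no pairing.

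CDK6 kept its direction and its side of the threshold over the 4 types and for mantle cell lines against GCB and against marginal zone and hairy cell lines, in all 11 alternatives and all 33 fits without 1 line. CCND3 did so for mantle cell against GCB lines. No value that passed changed sign in any alternative. The F test for CCND1 was lost with limma-voom (adjusted p = 0.231) and the authors' log2 values (0.0644), as was that for CCND3 (0.0686 and 0.0757). The F test for CCND2 was gained with the DESeq2 test (0.0170) and without JVM2 (0.0276), and ran from 0.0222 to 0.292 as each line was left out, passing without DOHH2 or JVM2. The cause of these shifts was not tested.

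Counts of genes that passed moved more. Over 4 types (151 genes) they were 271 with the DESeq2 test, 61 with limma-voom and 51 with the authors' log2 values. For mantle cell against GCB lines (105) they were 213, 57 and 67, 182 with the TMM factor as a covariate, 62 with FARAGE and RCK8 added to GCB and 67 without JVM2, and 67 to 131 with 1 line left out. For marginal zone and hairy cell against GCB lines (79) they were 14 with limma-voom, 7 with the authors' values, 37 with FARAGE and RCK8 added and 34 without HAIR_M and HC_1, and 42 to 92 with 1 line left out. For ABC against GCB lines (42) they were 127 with DESeq2, 5 with the authors' values and 26 with FARAGE and RCK8 added, and 24 to 53 with 1 line left out. For mantle cell against ABC lines (9) they were 4 at 50 CPM, 53 with DESeq2 and 1 each with limma-voom and the authors' values, and 3 to 18 with 1 line left out. For mantle cell against marginal zone and hairy cell lines (14) they were 5 with library size alone, 9 at 50 CPM, 32 with DESeq2, 1 each with limma-voom and the authors' values, 27 without JVM2 and 9 without HAIR_M and HC_1, and 7 to 27 with 1 line left out. For marginal zone and hairy cell against ABC lines (0) they were 31 with DESeq2 and 0 to 1 with 1 line left out.

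Relative to each gene's own median, a scale that does not compare amounts between genes, 12 lines were led by CCND1 and 14 by CCND3. On it CDK4 led CDK6 in 12 lines. Of the 2 relations that passed, 0 passed with library size alone, 1 with the TMM factor regressed out and 1 with type means taken out, and 1 to 2 passed with 1 line left out.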
